A study of Mus musculus with 14 samples.

Results

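Gene expression was compared between 2 regions of the seminiferous tubule that hold spermatids of different ages, in control mice only. Spermatids were collected by laser capture microdissection, in which tissue is cut from a section under the microscope, and their RNA was sequenced from SMART-seq2 libraries, a protocol for very small amounts of RNA. One region held round spermatids at steps 4-8 of their development and is called the mid region below. The other held the youngest round spermatids, steps 1-3, together with the elongating and elongated ones, steps 9-16, and is called the mixed region. Each region was represented by 2 libraries from males of genotype Tsga8+/Y, which carry the intact X-linked gene Tsga8. The members are the 6622 genes, of 25965 in the table, with at least 1 RPKM in at least 2 of these 4 libraries. RPKM is the usual read count scaled to library size and gene length, taken here over the whole span of a gene with its introns. Of the series' 14 libraries, the 4 captured from knockout (Tsga8-/Y) males are shown beside the controls, and the whole testis libraries were not used. The replicates were separate animals per the study's design text, but the labels do not tie the regions to animals or give the age of the captured males.

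Spermiogenesis is the change of a round haploid cell into a sperm. During the round steps the acrosome, the enzyme-filled cap used to reach the egg, is built and most spermatid genes are transcribed. As the cell elongates, histones are replaced first by transition proteins and then by protamines, transcription stops, and stored messenger RNAs are translated. A tubule section shows several generations at once, so round and elongated spermatids can lie in the same cross-section.

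The mixed region libraries were not alike. The 4 messages of sperm nuclear proteins, Prm1, Prm2, Tnp1 and Tnp2, made up 10.3% and 12.2% of all RPKM in the mid libraries, 36.1% in mixed library 1 and 15.6% in mixed library 2. These genes have short spans, so their share of RPKM exceeds their share of the reads in genes. The latter was 1.23% and 1.37% in the mid libraries, 6.32% in mixed library 1 and 1.58% in mixed library 2. Spearman's rho over the tested genes was 0.72 between the 2 mixed libraries and 0.82 between mixed library 2 and mid library 1, while the 2 mid libraries had 0.81. Mixed library 1 was nearer to the 2 mixed libraries of the knockouts, with rho of 0.79 and 0.81. The 6 Leydig cell markers, which mark the hormone-producing cells between tubules, summed to 1.20 and 0.373 RPKM in the mid libraries, 8.59 in mixed library 1 and 84.9 in mixed library 2. Insl3, the Leydig hormone, supplied 77.9 RPKM of that last sum. Markers of Sertoli cells, the supporting cells of the tubule, summed to 77.9 and 46.3 RPKM in the mid libraries and 79.1 and 110 in the mixed ones. Cst9 supplied between 38.0 and 66.6 RPKM of each of these sums, and Clu supplied 32.8 RPKM in mixed library 2. Vessel and macrophage markers each summed to under 1.5 RPKM in every control library. Cd68 was at 0 in every captured library of both genotypes, so whether it was counted at all cannot be told. The spermatocyte markers summed to 73.5 RPKM in mixed library 1 and to 30.4 or less in the other 3 control libraries. Ccna1 supplied 35.1 RPKM and Aurka 14.6 of the sum in mixed library 1. Sycp3 had 11.5 RPKM in mixed library 1 and 12.8 in mixed library 2. Sycp1 and Dmc1 went the other way and were lowest in mixed library 1, at 0.242 and 0.0235 RPKM. The part of these markers in the differences below was not tested, and values without each mixed library are given. Depth was 72022392 and 46956880 reads behind the scaling in the mid libraries and 23467235 and 49051271 in the mixed ones, so 1 RPKM over the median gene span of 10.1 kb stood for 237 to 728 reads.

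**Figure D1:**
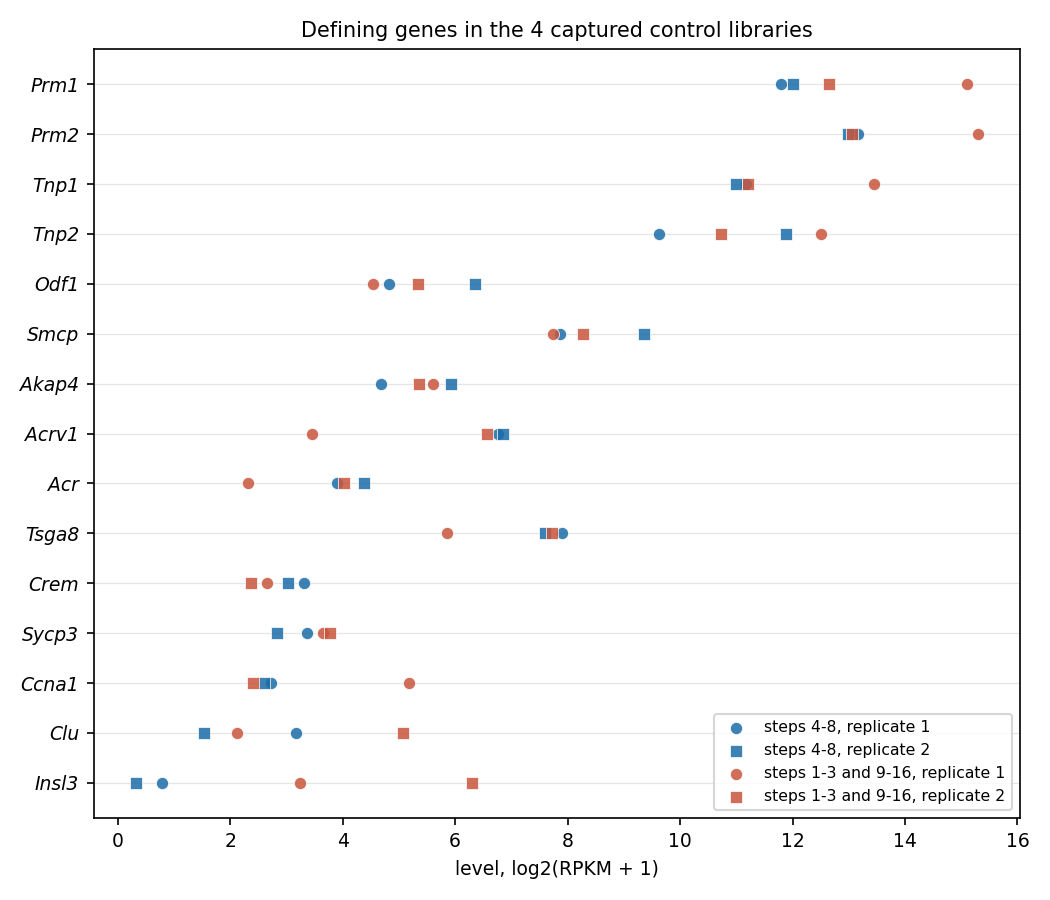
Levels of 15 defining genes as log2(RPKM + 1) in each of the 4 captured control libraries, with colour for the region and marker shape for the replicate. Mixed library 1 stands at the high end for Prm1, Prm2, Tnp1 and Ccna1, while mixed library 2 lies near the mid libraries for these genes except Prm1 and stands high for Insl3 and Clu.

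The summed levels of stage markers differed between the regions in the direction of the labelled steps, mainly through mixed library 1 and the nuclear protein messages. The 8 round spermatid markers, among them the acrosomal Acrv1 and Acr, summed to 507 and 570 RPKM in the mid libraries against 200 and 373 in the mixed ones. The 9 elongating spermatid markers, led by the protamines, summed to 17759 and 21077 RPKM in the mid libraries, 95945 in mixed library 1 and 21137 in mixed library 2. Both round sums of the mid region thus lay above both of the mixed region, and both elongating sums of the mixed region lay above those of the mid region, the second by little. Single elongating markers did not all follow their sum: Odf1, Smcp and Gapdhs had log2 differences, mixed minus mid, of -0.65, -0.61 and -0.58, and Akap4 had 0.17.

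No gene passed the test between the regions. With limma on log2(RPKM + 1) and Benjamini-Hochberg adjustment over 6622 genes, 0 genes (0%) had an adjusted p under 0.05, and the lowest was 0.32. At an unadjusted p under 0.05 there were 368 genes higher in the mixed region (5.56% of those tested) and 440 lower (6.64%). Both mixed libraries lay above both mid libraries for 1292 genes (19.5%) and below them for 1458 (22%). The median log2 difference, mixed minus mid, was 0.02, and the median standard error of a gene was 0.50. The filter itself fixed some of these directions, since 167 genes reached 1 RPKM in both mid libraries alone and 295 in both mixed libraries alone. Counts and medians below are therefore descriptions of the genes that passed the filter, and standard errors (SE) stand after each ±. Leaving out mixed library 2 raised the count at an unadjusted p under 0.05 from 808 to 1301, with the lowest adjusted p at 0.0787. Without mixed library 1 it was 414, and without mid library 2 it was 331. In bulk RNA of captured tissue, fewer cells of a type and less RNA per cell cannot be told apart.

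Genes were named by lowest p if their regions did not overlap and their mean in the higher region was at least 5 RPKM. Predicted and clone symbols were left out. The genes so named as lower in the mixed region included several proteins of the sperm surface and acrosome. Spam1 and Hyal5 encode sperm hyaluronidases, which digest the matrix around the egg, and lie near each other on chromosome 6 (mm10, 24795824 to 24801048 and 24875909 to 24891805, both on the plus strand). Hyal5 stood at 13.2 and 17.3 RPKM in the mid libraries and at 2.09 and 3.92 in the mixed ones, a log2 difference of -2.05 ± 0.48. For Spam1 the values were 20.2 and 18.7 against 4.08 and 6.66, a difference of -1.71 ± 0.48. Neither gene's regions overlapped, and in the knockouts both again stood lower in the mixed region, by -1.31 for Hyal5 and -0.56 for Spam1. Adam29, one of the ADAM membrane proteins of spermatids, was at 4.61 and 6.83 RPKM in the mid libraries and 0.302 and 1.06 in the mixed ones (-2.02 ± 0.42). Its relative Adam26a was at 11.3 and 16.8 against 1.97 and 4.56 (-1.87 ± 0.55).

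Several of the other lower genes act in chromatin, ubiquitin transfer or metabolism. Suv39h2, a histone H3 lysine methyltransferase prominent in the testis, had 5.40 and 7.83 RPKM in the mid libraries and 0.616 and 1.77 in the mixed ones (-1.83 ± 0.53). Fbxo47, an F-box protein needed in meiotic prophase, had 4.37 and 5.66 against 0.583 and 1.53 (-1.58 ± 0.41). Acot10, an acyl-CoA thioesterase, had 37.0 and 34 against 1.36 and 11.1 (-2.77 ± 0.78). The most abundant of the 15 named here was Tmem225, which encodes a membrane protein, at 214 and 146 RPKM against 37.9 and 54.1 (-1.94 ± 0.53). Adipoq, better known as the adipocyte hormone adiponectin, was read at 28.2 and 27.8 RPKM in the mid libraries and at 4.05 and 8.13 in the mixed ones (-2.09 ± 0.60). The remaining genes were Olfr112, an olfactory receptor, the ankyrin repeat genes Ankrd61 and Ankrd7, the RING finger gene Trim59, Nipsnap3a and Apobec2, with log2 differences from -2.13 to -1.76. None of the 15 was called (limma, adjusted p 0.32 for each).

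**Figure D2:**
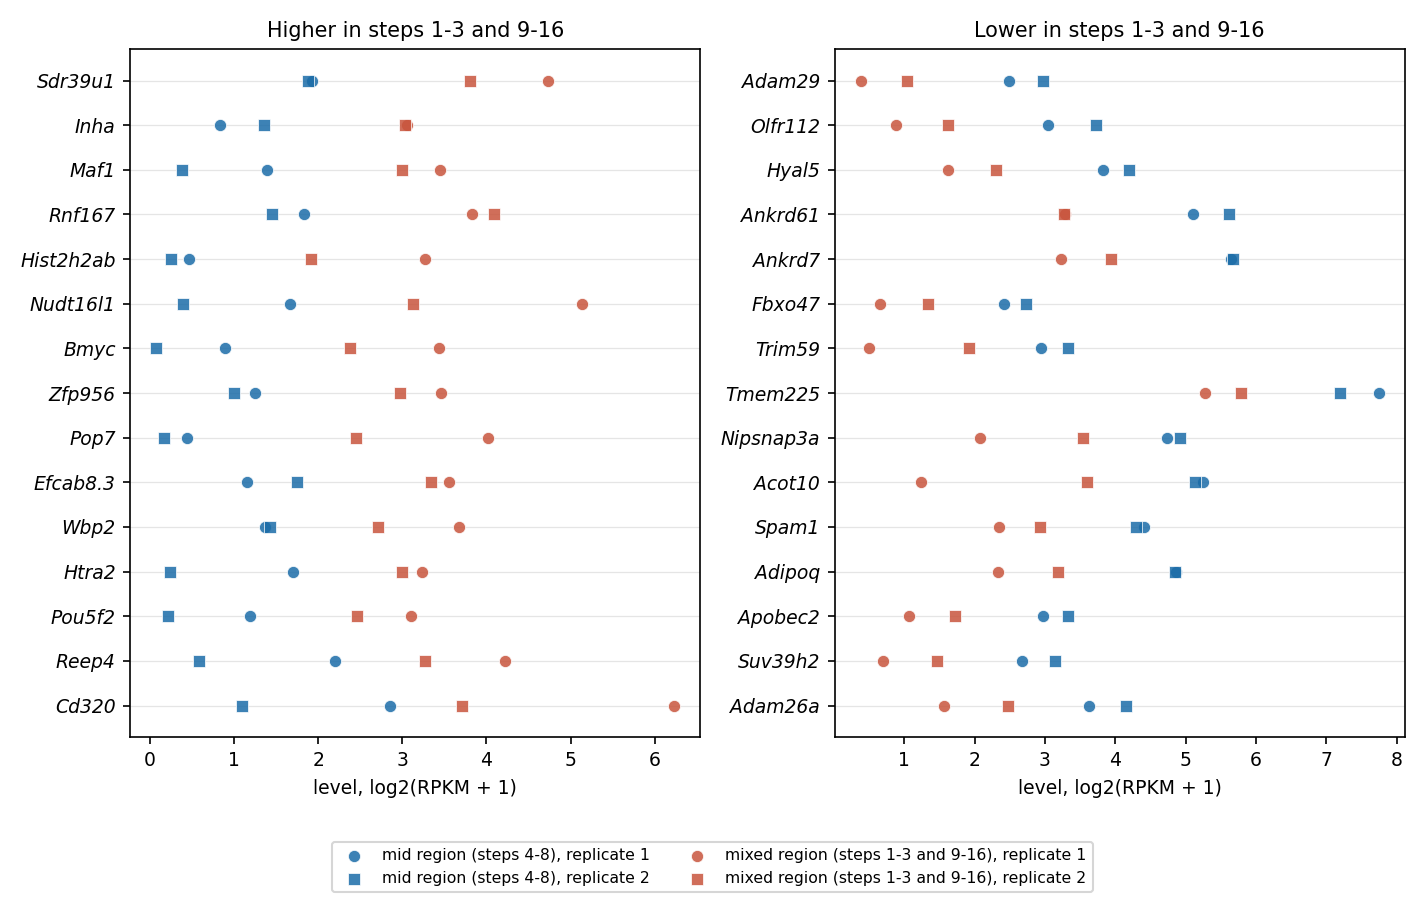
Levels as log2(RPKM + 1) of the 15 genes named in each direction, 1 point per captured control library, with colour for the region and shape for the replicate. They had the lowest p among genes with a mean of at least 5 RPKM in the higher region and no predicted or clone symbol. The regions do not overlap for any gene shown because that was a condition for naming it, and the mixed libraries lie farther apart for Cd320, Nudt16l1 and Acot10 than for Inha or Ankrd61.

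The genes named in the same way as higher in the mixed region were mostly expressed at low levels in the mid region. Sdr39u1, a short-chain dehydrogenase on chromosome 14 (mm10, 55897286 to 55900232), had 2.81 and 2.67 RPKM in the mid libraries and 25.6 and 13.0 in the mixed ones (2.37 ± 0.49). Rnf167, a RING-type ubiquitin ligase, had 2.56 and 1.72 against 13.2 and 16.0 (2.32 ± 0.54). Maf1, the repressor of RNA polymerase III, had 1.61 and 0.297 against 9.88 and 6.95 (2.34 ± 0.52). For these 3 genes each mixed library exceeded both mid libraries by several RPKM. Cd320, the receptor for transcobalamin, had the widest gap between mixed replicates, at 6.23 and 1.14 RPKM in the mid libraries against 74.4 and 12.1 (3.00 ± 0.84). Pou5f2, a POU domain transcription factor of male germ cells, had 1.28 and 0.157 against 7.61 and 4.51 (2.08 ± 0.54).

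Inha, the inhibin alpha subunit and a Sertoli cell product, was among them at 0.785 and 1.55 RPKM in the mid libraries and 7.32 and 7.19 in the mixed ones (1.95 ± 0.42). The defining Sertoli factors Sox9, Wt1 and Gata4 were low but each highest in mixed library 2, at 1.80, 0.595 and 0.210 RPKM. In the other control libraries they were at 0.592 RPKM or less. Not all Sertoli markers followed: Rhox5, Vim and Fshr were highest in mid library 1, at 8.54, 1.77 and 0.0670 RPKM. In mixed library 2 these were at 6.19, 1.51 and 0.0557 RPKM. Of 30 Sertoli genes, 13 were tested, 3 lay higher without overlap (23.1%, near the 19.5% of all tested genes) and 0 lower, and the median was 0.38 in the controls and 0.51 in the knockouts. The control median was 0.89 without mid library 1 and 0.10 without mid library 2. Clu, the secreted chaperone clusterin, had 7.99 and 1.88 RPKM in the mid libraries and 3.35 and 32.8 in the mixed ones, with overlap. Few genes of other cells passed the filter: 3 of 22 for spermatogonia, 3 of 16 for Leydig cells, 1 of 22 for peritubular and vessel cells and 2 of 18 for macrophages and blood cells. The other higher genes were the histone gene Hist2h2ab, Nudt16l1, Bmyc, the zinc finger gene Zfp956, the RNase P subunit Pop7, Efcab8.3, Wbp2, the mitochondrial protease Htra2 and Reep4, with log2 differences from 1.80 to 3.10. Efcab8.3 is listed beside other numbered rows of its symbol, and its reads may be shared with them. All 15 had a limma adjusted p of 0.32.

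The same contrast was taken in the knockout libraries, whose values enter the choice of these genes through the shared estimate of spread but not through the control difference. Of the 15 genes named as lower, 14 had the same sign in the knockouts, where 46.8% of all tested genes were negative, and 12 had regions that did not overlap in that direction (80%), where 22.4% of all tested genes did. Of the 15 named as higher, 12 had the same sign, where 53.1% of all tested genes were positive, and 9 did not overlap in that direction (60%), where 24.1% of all tested genes did. Among the 440 genes lower at an unadjusted p under 0.05, 384 (87.3%) were negative in the knockouts and 304 (69.1%) did not overlap in that direction. Among the 368 higher ones, 306 (83.2%) were positive and 205 (55.7%) did not overlap in that direction. The knockout libraries lack Tsga8, so they are no repeat of the control experiment. In the knockouts, too, 0 genes passed the limma test (lowest adjusted p 0.44), and 674 (10.2%) had an unadjusted p under 0.05, 353 higher (5.33%) and 321 lower (4.85%). Their regions did not overlap for 3082 genes (46.5%), against 2750 (41.5%) in the controls. The region difference was not shown to differ between genotypes for any gene: 0 of 6622 passed limma's interaction test. Its unadjusted p was under 0.05 for 176 genes (2.66%), 79 with a more positive difference in the controls (1.19%) and 97 with a more negative one (1.46%).

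Tsga8 itself, on the X chromosome (mm10, 83486678 to 83487924, minus strand), was read at 239 and 193 RPKM in the mid libraries, 56.9 in mixed library 1 and 209 in mixed library 2. The regions overlapped, and the log2 difference was -0.97 ± 0.65 (limma adjusted p 0.57). In the knockout libraries it stood between 2.18 and 9.42 RPKM, which checks the genotype labels.

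The messages of the condensed sperm nucleus were among the most abundant, with Prm2 highest of all tested genes in each of the 4 libraries, and their regions differed mainly through mixed library 1. Prm1, protamine 1, had 3541 and 4141 RPKM in the mid libraries, 35227 in mixed library 1 and 6425 in mixed library 2, a log2 difference of 1.97 ± 1.06 (limma adjusted p 0.47). Prm2, protamine 2, had 9157 and 8072 against 40072 and 8541 (1.11 ± 0.76), and mixed library 2 fell within the mid range. Tnp1, transition protein 1, had 2299 and 2029 against 11130 and 2366 (1.25 ± 0.83), with mixed library 2 just above the mid libraries. Tnp2, transition protein 2, had 785 and 3769 against 5845 and 1699 (0.87 ± 1.13), and its regions overlapped. Without mixed library 1 the differences of Prm2 and Tnp2 were -0.01 and -0.02. In the knockouts Prm1 had 218 and 1396 RPKM in the mid libraries and 7064 and 1842 in the mixed ones.

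Across the 24 tested genes of chromatin condensation, of 32 in the table, 3 lay higher and 4 lower in the mixed region without overlap (12.5% and 16.7%), against 19.5% and 22% of all tested genes. Their median was 0.21 where that of all tested genes was 0.02, and it was 0.04 without mid library 2. Kat5, a histone acetyltransferase, had 0.671 and 0.575 RPKM in the mid libraries and 11.2 and 2.58 in the mixed ones (2.03 ± 0.61, limma adjusted p 0.32). H3f3b, which encodes the replacement histone H3.3, had 179 and 180 against 22.5 and 104 (-1.87 ± 0.70, adjusted p 0.34). Hist1h2ba, a testis H2B histone, had 1.25 and 0.109 against 1.10 and 6.97, and its regions overlapped.

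The upstream sequence is shown for Prm1, Prm2 and Tnp1, abundant messages of condensation, and for Izumo1, which had the lowest difference among the fusion genes. The positive differences of Prm2 and Tnp1 rested on mixed library 1 and were -0.01 and 0.13 without it. The windows of Tnp2 and Acrv1 were read in the same way, held no match to either motif given here, and are not printed. Each is the 250 bases before the RefSeq start on the gene's own strand (GRCm38.p6, the assembly whose coordinates mm10 uses). They lie at chr16:10796824-10797073 (Prm1), chr16:10792106-10792355 (Prm2) and chr1:73015900-73016149 (Tnp1), all on the minus strand, and at chr7:45621561-45621810 (Izumo1) on the plus strand. Capitals mark matches on either strand to TGACNTCA, which covers the cAMP response element bound by CREM, the master activator of round spermatids, and to TATAAA.
Prm1: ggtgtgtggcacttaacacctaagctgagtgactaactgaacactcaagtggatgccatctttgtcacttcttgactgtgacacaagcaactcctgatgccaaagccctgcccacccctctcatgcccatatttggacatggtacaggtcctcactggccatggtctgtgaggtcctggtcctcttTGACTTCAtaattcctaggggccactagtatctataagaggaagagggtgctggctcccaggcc
Prm2: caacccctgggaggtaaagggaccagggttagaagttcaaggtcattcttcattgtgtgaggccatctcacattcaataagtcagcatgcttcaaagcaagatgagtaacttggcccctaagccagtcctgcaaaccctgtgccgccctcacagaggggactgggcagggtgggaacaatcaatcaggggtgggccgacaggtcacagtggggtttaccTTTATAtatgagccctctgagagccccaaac
Tnp1: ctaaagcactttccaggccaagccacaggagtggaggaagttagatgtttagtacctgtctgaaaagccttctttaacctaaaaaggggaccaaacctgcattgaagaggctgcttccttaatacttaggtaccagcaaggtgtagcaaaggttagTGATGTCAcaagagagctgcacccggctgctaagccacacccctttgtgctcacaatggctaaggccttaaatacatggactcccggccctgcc
Izumo1: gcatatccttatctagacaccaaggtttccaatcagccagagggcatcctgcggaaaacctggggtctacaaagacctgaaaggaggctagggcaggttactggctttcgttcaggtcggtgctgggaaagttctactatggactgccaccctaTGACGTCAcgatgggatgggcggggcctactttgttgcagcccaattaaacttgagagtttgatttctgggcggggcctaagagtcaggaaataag

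The match in Prm1 began 64 bases before the start, in Tnp1 94 bases (on the opposite strand) and in Izumo1 96 bases, where it was the full palindrome TGACGTCA. Prm2 held no match to TGACNTCA in this window and a TATAAA match on the opposite strand 31 bases before the start. Over 300-base windows (250 before and 50 after the start), available for 3803 of the tested genes, TGACNTCA was found in 10.9%. It was found in 40 of 212 windows (18.9%) of genes lower in the mixed region at an unadjusted p under 0.05 and in 15 of 226 (6.64%) of those higher. TATAAA was found in 8.15% of all windows, 13.2% of those lower and 8.41% of those higher. The palindrome TGACGTCA, which TGACNTCA includes, was found in 4.29% of all windows, 3.77% of those lower and 3.10% of those higher. Its core TGACG stood in 34.1% of all windows, 26.9% of those lower and 31.9% of those higher, and GTTGCC, a part of the X-box, stood in 15.9%, 22.6% and 14.6%. Crem itself had 8.91 and 7.14 RPKM in the mid libraries and 5.28 and 4.15 in the mixed ones (-0.66 ± 0.42, limma adjusted p 0.56).

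Genes of the acrosome and of gamete recognition mostly had lower values in the mixed region, although none passed the test. All 24 genes of the acrosomal matrix and zona interaction in the table were tested, and 11 lay lower without overlap (45.8%, against 22% of all tested genes) and 2 higher (8.33%). Their median log2 difference was -0.80 in the controls and -0.60 in the knockouts. It was -0.44 without mixed library 1 and -1.18 without mixed library 2. Lyzl6, a lysozyme-like protein, had 72.0 and 53.8 RPKM in the mid libraries, 2.27 in mixed library 1 and 31.4 in mixed library 2 (-2.62 ± 0.97, limma adjusted p 0.34). Acrv1, an acrosomal vesicle protein, had 108 and 115 against 9.99 and 94.1 (-1.79 ± 0.88, adjusted p 0.44), so that most of its difference came from mixed library 1. Acr, the protease acrosin, had 13.9 and 19.9 against 3.97 and 15.3, and its regions overlapped (-0.97 ± 0.59). At the other end Acrbp, which binds proacrosin, had 13.1 and 17.0 against 24.8 and 22.7 (0.63 ± 0.45), and the membrane-anchored protease gene Prss21 had 13.0 and 19.5 against 43.7 and 13.4 (0.58 ± 0.62, but -0.23 without mixed library 1).

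Sperm-egg fusion needs several membrane and secreted proteins of the sperm, and all 7 of the tested fusion genes had a negative difference. Of these, 4 lay lower without overlap (57.1%, against 22% of all tested genes), and the median was -1.35, against -1.10 in the knockouts. The control median was -2.10 without mid library 2 and -2.61 without mixed library 2. Izumo1, the sperm receptor for the egg protein JUNO, had 26.7 and 18.5 RPKM in the mid libraries, 0.510 in mixed library 1 and 10.4 in mixed library 2 (-2.49 ± 0.84, limma adjusted p 0.33). 4930451I11Rik, known as Fimp and needed for fusion, had 163 and 166 against 16.5 and 62.2 (-2.31 ± 0.72, adjusted p 0.32). 1700034O15Rik, known as Sof1, had 1146 and 832 against 588 and 395 (-1.02 ± 0.55, adjusted p 0.47). Izumo3, which acts in acrosome formation, had 135 and 120 against 94.7 and 46.3 (-0.93 ± 0.56, adjusted p 0.52). Cd46, the complement regulator of the acrosome membrane, had 0.525 and 3.86 against 0.380 and 1.30, with overlap.

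Genes that build and anchor the acrosome or shape the head had negative medians as well, nearer to 0. Of 16 tested genes of acrosome formation, 5 lay lower (31.2%, against 22% of all tested genes) and 2 higher (12.5%, against 19.5%) without overlap, with a median of -0.36. It was -0.15 without mixed library 1, -0.77 without mixed library 2 and -0.55 without mid library 1. Spaca1, an acrosomal membrane protein, had 19.9 and 20.2 RPKM in the mid libraries and 2.58 and 11.5 in the mixed ones (-1.65 ± 0.63, limma adjusted p 0.35). Dpy19l2, which anchors the acrosome to the nuclear envelope, had 13.0 and 11.8 against 3.29 and 6.46 (-1.24 ± 0.47). Of 38 tested genes of head shaping, the perinuclear theca and the manchette, 13 lay lower (34.2%, against 22% of all tested genes) and 1 higher (2.63%, against 19.5%), with a median of -0.31. It lay between -0.52 and -0.22 when 1 control library was left out. Sun5, which couples the tail to the head, had 17.1 and 25.2 against 3.26 and 11.7 (-1.57 ± 0.58), and the basic protein gene Cylc2 of the calyx had 18.3 and 18.7 against 4.78 and 10.8 (-1.24 ± 0.49). Ccin, the calyx protein calicin, had 86.9 and 186 against 16.0 and 127, with overlap. Some manchette genes had positive differences: Spem1 had 145 and 156 against 468 and 120, and Ift20 had 9.56 and 3.06 against 9.14 and 9.93, both with overlap.

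The tail's structural genes divided between its parts. Among 36 tested genes of the fibrous sheath, dense fibres and mitochondrial sheath, 15 lay lower (41.7%, against 22% of all tested genes) and 5 higher (13.9%, against 19.5%) without overlap, and the median was -0.38. It was -0.14 without mid library 2 and -0.21 without mixed library 1. Cabyr, a calcium-binding protein of the fibrous sheath, had 32.3 and 52.1 RPKM in the mid libraries and 6.19 and 24.4 in the mixed ones (-1.64 ± 0.64, limma adjusted p 0.36). Tssk4, a spermatid kinase that acts on Odf2, had 77.8 and 62.3 against 9.36 and 59.9 (-1.49 ± 0.80). Odf3, an outer dense fibre gene, had 80.5 and 93.1 against 16.0 and 62.3 (-1.42 ± 0.64). The main sheath protein Akap4 had 24.8 and 59.7 against 47.8 and 39.9, Odf1 had 27.5 and 80.8 against 22.1 and 39.6, and the mitochondrial capsule gene Smcp had 233 and 656 against 214 and 308. For these 3 genes mid library 2 was the highest, the regions overlapped, and mid library 1 was the lowest of the 4 for Akap4 and lay between the mixed libraries for Odf1 and Smcp.

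Genes of the axoneme, the microtubule core of the tail, showed the other balance. Of 22 tested, 11 lay higher in the mixed region without overlap (50%, against 19.5% of all tested genes) and 1 lower, though the median difference was only 0.18 and lay between 0.21 and 0.28 when 1 control library was left out. In the knockouts the median was 0.13. Rsph1, a radial spoke protein, had 20.0 and 10.5 RPKM in the mid libraries and 40.8 and 40.6 in the mixed ones (1.43 ± 0.53, limma adjusted p 0.34). The testis tubulins Tuba3a and Tuba3b had 54.3 and 25.4 against 77.3 and 69.3, and 78.7 and 33.4 against 133 and 88.5, but their sequences are so alike that reads may be split between them. Ccdc39, the ruler of axonemal spacing, had 2.76 and 2.45 against 4.13 and 6.91 (0.82 ± 0.42). Tekt2, a tektin filament gene, had 61.8 and 115 against 25.8 and 98.8, with overlap.

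Among 17 tested ion channel and transporter genes of sperm, 7 lay lower (41.2%, against 22% of all tested genes) and 4 higher (23.5%, against 19.5%) without overlap, and the median was -0.32. It was -0.21 without mixed library 1. CatSper is the calcium channel of the flagellum, and its subunits were not alike. Catsper1 had 12.7 and 11.7 RPKM in the mid libraries, 0.248 in mixed library 1 and 7.85 in mixed library 2 (-1.99 ± 0.78, limma adjusted p 0.36). Efcab9, its calcium sensor, had 81.1 and 61.6 against 7.57 and 31.8 (-2.10 ± 0.71, adjusted p 0.33). Catsper2 had 6.63 and 7.88 against 9.62 and 10.4 (0.42 ± 0.42). The lactate and pyruvate carrier gene Slc16a7 had 8.39 and 12.2 against 1.26 and 4.16 (-1.71 ± 0.50), while the glucose carrier gene Slc2a3 had 4.50 and 2.95 against 8.90 and 6.63 (0.90 ± 0.42).

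The 25 tested transcription regulators of spermatids included genes at both ends, with 9 higher (36.0%, against 19.5% of all tested genes) and 7 lower (28.0%, against 22%) without overlap. Hsfy2, a relative of the heat shock factors, had 244 and 372 RPKM in the mid libraries, 8.68 in mixed library 1 and 108 in mixed library 2, a log2 difference of -3.22 ± 0.96 (limma adjusted p 0.32). Hsf2, heat shock factor 2, had 3.96 and 4.03 against 0.449 and 0.975 (-1.56 ± 0.39, adjusted p 0.32). In the knockouts these genes stood at -2.46 and -1.0. Zbtb32, a zinc finger gene, had 5.64 and 1.76 against 12 and 19.2 (1.92 ± 0.55), but only 0.18 in the knockouts. Pou5f2, given above, was the other of the 2 highest and had 0.10 in the knockouts.

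Genes that store or translate messages and genes of the piRNA pathway were spread to both sides. Of 25 tested storage and translation genes, 7 lay lower (28.0%) and 4 higher (16.0%), against 22% and 19.5% of all tested genes. Their median of -0.09 was 0.02 without mid library 2 and 0.07 without mixed library 1. Mex3c, an RNA-binding ubiquitin ligase, had 5.85 and 11.6 RPKM in the mid libraries and 0.545 and 3.87 in the mixed ones (-1.76 ± 0.63, limma adjusted p 0.34), and Cpeb2, a binder of cytoplasmic polyadenylation elements, had 6.76 and 9.09 against 1.46 and 3.65 (-1.39 ± 0.47). Tarbp2, a double-stranded RNA-binding protein needed to translate the protamine messages, had 4.61 and 4.44 against 19.9 and 7.20 (1.25 ± 0.51, adjusted p 0.38). Pabpc6, of the poly(A)-binding protein family, had 15.5 and 15 against 54.2 and 25.9 (1.25 ± 0.63). Ybx2, the messenger-storing protein MSY2, had 8.93 and 29.5 against 18.7 and 31.4, with overlap. Of 17 piRNA and chromatoid body genes, 4 lay higher (23.5%) and 5 lower (29.4%), against 19.5% and 22% of all tested genes. The largest difference was that of Gpat2, a mitochondrial piRNA factor, with 1.28 and 0.446 against 3.40 and 3.79 (1.34 ± 0.45), and the smallest that of Gtsf1, with 70.9 and 84.9 against 36.1 and 48.7 (-0.87 ± 0.51). Piwil1, the PIWI protein MIWI, had 5.0 and 1.09 against 0.962 and 8.51, with overlap.

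Signalling and metabolism followed no single direction either. Of 18 tested spermatid kinases and phosphatases, 3 lay higher and 3 lower without overlap (16.7% each, against 19.5% and 22% of all tested genes). The dual specificity phosphatase gene Dusp21 had 81.0 and 271 RPKM in the mid libraries and 16.9 and 48.3 in the mixed ones (-2.33 ± 0.81, limma adjusted p 0.33), and the casein kinase subunit gene Csnk2a2 had 1.09 and 0.430 against 1.82 and 2.69 (0.90 ± 0.38). Tssk6, a kinase needed for fertilization, had 85 and 162 against 344 and 136, with overlap. Of 28 tested genes of sperm glycolysis and energy metabolism, 4 lay higher (14.3%) and 6 lower (21.4%), against 19.5% and 22% of all tested genes. Their median of 0.17 was -0.06 without mixed library 1, -0.02 without mid library 2 and -0.01 with libraries scaled to a common sum. Got1l1, an aspartate aminotransferase relative, had 30 and 27.6 against 3.38 and 14.5 (-1.85 ± 0.61), and Pdha2, the testis pyruvate dehydrogenase subunit, had 56.8 and 134 against 14.1 and 58.4. Oxct2a, a testis enzyme of ketone body use, had 19 and 36.2 against 103 and 31.3, and the cytochrome oxidase subunit gene Cox6b2 of testis had 149 and 85.3 against 161 and 294. The sperm glycolytic enzyme gene Gapdhs had 56.3 and 99.5 against 44.1 and 55.8 (-0.58 ± 0.50).

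**Figure D3:**
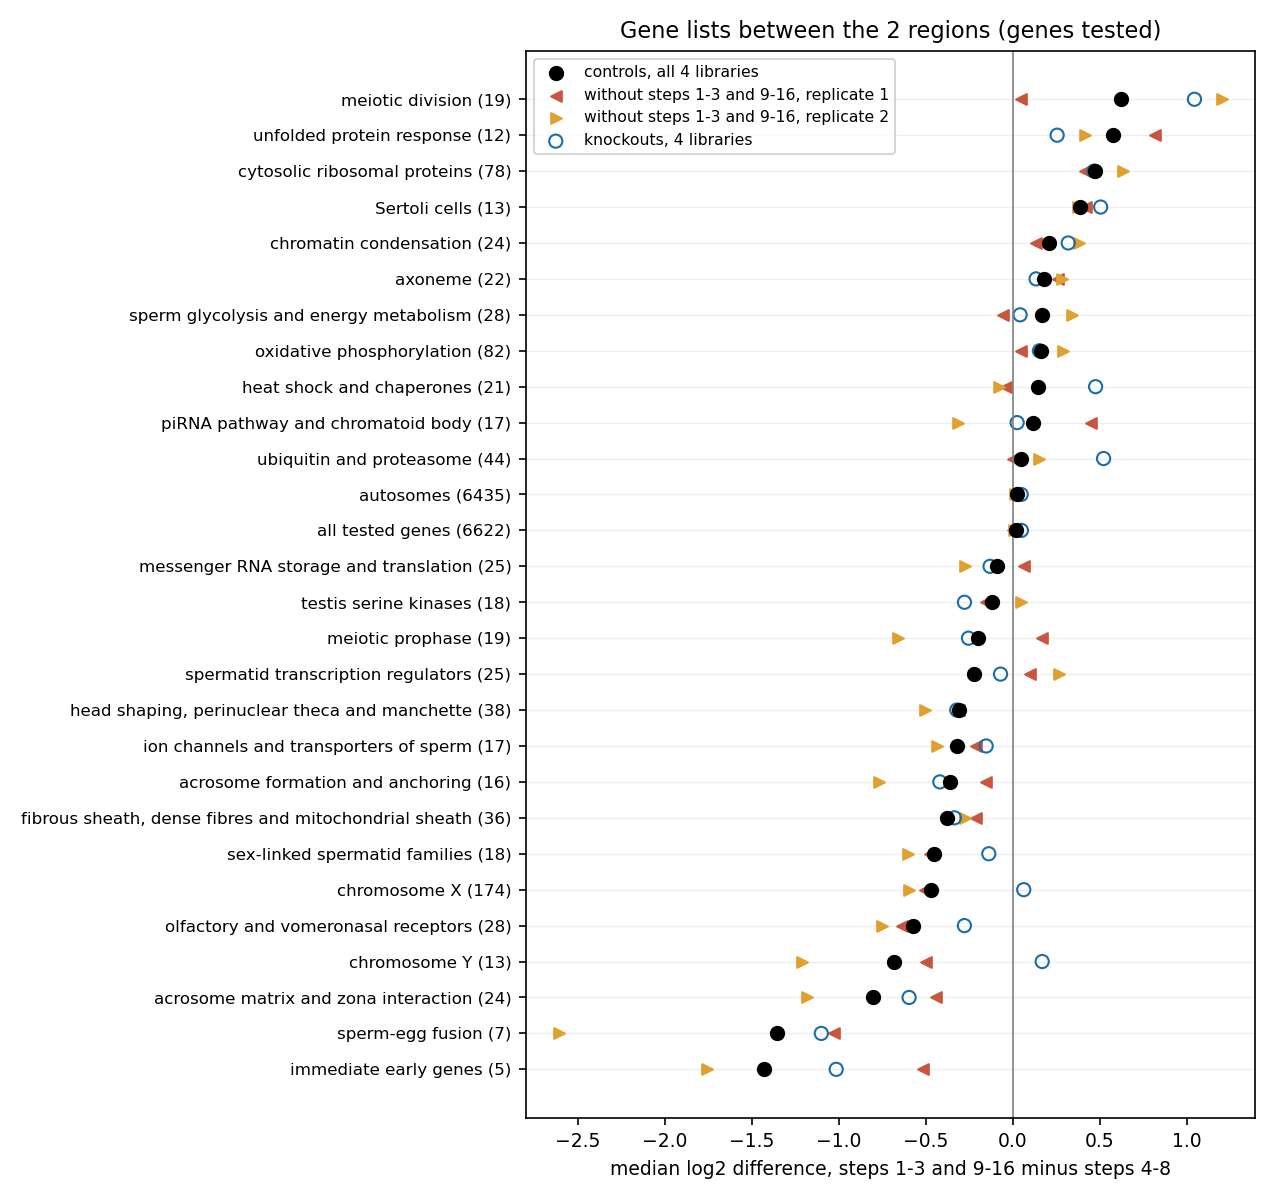
Median log2 difference, mixed minus mid region, of each gene list with at least 5 tested genes (number in brackets), for the 4 control libraries, without either mixed library, and for the 4 knockout libraries. Fusion, acrosomal matrix and sheath genes lie left of all tested genes in every setting shown, ribosomal protein and meiotic division genes lie right, and chromosome X lies left in the controls at -0.47 but at 0.06 in the knockouts.

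Dividing spermatocytes occur in tubules with late spermatids. Whether any were captured with the mixed region was not tested. Of 19 tested genes of meiotic division, 14 had a positive difference in the controls and 18 in the knockouts, with medians of 0.62 and 1.04. Without overlap, 5 lay higher (26.3%) and 3 lower (15.8%) in the controls, against 19.5% and 22% of all tested genes. The control median was 0.05 without mixed library 1, 1.20 without mixed library 2 and 0.36 without mid library 2. Ccna1, the cyclin of the first meiotic division, had 5.61 and 5.04 RPKM in the mid libraries, 35.1 in mixed library 1 and 4.31 in mixed library 2. Its knockout values were 4.76 and 5.23 against 28.1 and 45.5, so mixed library 2 of the controls stood alone among the 4 mixed libraries. Pttg1, securin, which inhibits the separation of sister chromatids, had 8.68 and 7.10 against 41.9 and 11.5 (1.39 ± 0.66, limma adjusted p 0.42), and Cdkn2d, a cyclin-dependent kinase inhibitor, had 10 and 3.58 against 25.2 and 14.7 (1.52 ± 0.54). Among meiotic prophase genes, of 19 tested, 3 lay higher (15.8%) and 6 lower (31.6%), against 19.5% and 22% of all tested genes. They ran from Syce2 of the synaptonemal complex at 23.3 and 25.0 against 5.75 and 11.5 (-1.45 ± 0.49) to the histone gene H2afx at 11 and 2.40 against 14 and 18.9 (1.43 ± 0.60).

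Among 12 tested genes of the unfolded protein response, 3 lay higher (25.0%, near the 19.5% of all tested genes) and 0 lower, with a median of 0.58 in the controls and 0.26 in the knockouts. The control median lay between 0.36 and 0.82 when 1 control library was left out. Hspa5, the endoplasmic reticulum chaperone BiP, had 10.9 and 7.27 RPKM in the mid libraries and 38.7 and 19.4 in the mixed ones (1.52 ± 0.64, limma adjusted p 0.39). Ddit3, the stress transcription factor CHOP, had 8.72 and 5.8 against 26.5 and 16.6 (1.44 ± 0.46, adjusted p 0.33) but -0.20 in the knockouts. Of the immediate early genes, which can respond to tissue handling, 5 of 20 were tested. Dusp1 had 4.64 and 6.99 against 0.596 and 2.30 (-1.55 ± 0.46, adjusted p 0.32), Klf4 had 15.8 and 29.6 against 1.39 and 14.8 (-1.88 ± 0.80), and Jund had 0.979 and 1.63 against 4.34 and 2.32 (0.88 ± 0.40). The 21 heat shock and chaperone genes had 3 higher and 4 lower (14.3% and 19.0%, against 19.5% and 22% of all tested genes). Their median of 0.15 changed sign without either mixed library.

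Ribosomal protein genes leaned to the mixed region by their medians in both genotypes, but not in every library. Of 78 tested, 63 had a positive difference in the controls and 62 in the knockouts, with medians of 0.48 and 0.47. In the controls 28 lay higher without overlap (35.9%, against 19.5% of all tested genes) and 2 lower (2.56%, against 22%). The lean depended on mid library 2, in which their RPKM summed to 2221 against 4215 in mid library 1 and 4563 and 3228 in the mixed libraries. Without that library the median was 0.0029. Rps3 had 12.3 and 4.40 RPKM against 22.8 and 22.2 (1.47 ± 0.61), while Rpl41 had 342 and 251 against 276 and 173. In the knockouts the RPKM of the ribosomal protein genes summed to 3008 and 2898 in the mid libraries. It was 6378 in knockout mixed library 1 and 2259 in knockout mixed library 2, which thus lay below both mid libraries. Ribosomal protein genes have many processed pseudogenes that can share their reads. Of 82 nuclear genes of oxidative phosphorylation, 20 lay higher (24.4%) and 16 lower (19.5%), against 19.5% and 22% of all tested genes. Atp5d, a subunit of ATP synthase, had 6.12 and 1.63 RPKM against 12.5 and 13.6 (1.70 ± 0.56), and Cox6a2, a cytochrome oxidase subunit gene, had 18.3 and 5.08 against 2.29 and 2.32 (-1.71 ± 0.86). Of 44 ubiquitin and proteasome genes, 9 lay higher and 8 lower (20.5% and 18.2%, near the shares of all tested genes). Klhl10, a spermatid-specific ubiquitin ligase adaptor, had 29.6 and 44.4 against 13.6 and 15.4 (-1.27 ± 0.47, limma adjusted p 0.34). The 13 genes encoded by mitochondrial DNA are listed without a read in these libraries.

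X-linked genes stood lower in the mixed region of the controls. Of 174 tested, 122 had a negative difference, 73 lay lower without overlap (42.0%, against 22% of all tested genes) and 14 higher (8.05%), and the median was -0.47 against 0.03 for autosomal genes. At an unadjusted p under 0.05, 41 of the 174 were lower and 5 higher, against 6.64% and 5.56% of all tested genes. The median stayed between -0.60 and -0.46 when any 1 control library was left out, but with no filter on low values, over mostly silent genes, it was 0.0011. The largest differences were those of predicted genes, with 4930447F04Rik at 57.3 and 94.3 RPKM in the mid libraries and 1.48 and 17.1 in the mixed ones (-3.47 ± 0.99, limma adjusted p 0.32) and Gm7157 at 17.2 and 47.5 against 2.35 and 2.34 (-3.15 ± 0.67, adjusted p 0.32). The RPKM of all X-linked genes in the table summed to 7913 and 7345 in the mid libraries against 10639 and 3959. RPKM over all genes in the table summed to 153430 and 147590 against 255810 and 121780. The X-linked sums thus come from libraries of unlike totals and do not show by themselves whether the pattern holds. Abundant X-linked genes such as 1700054O13Rik (1060 and 1042 against 2140 and 438) stood high in mixed library 1.

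The same 174 X-linked genes had a median difference of 0.06 in the knockouts. Of them, 30 lay lower and 34 higher without overlap there, against 22.4% and 24.1% of all tested genes in the knockouts. Limma's interaction called 0 of them, and 20 had an unadjusted p under 0.05. Of these, 18 had a more negative difference in the controls (10.3%, against 1.46% of all tested genes). The other 2 had a more positive one (1.19% of all tested genes). The filter used control libraries only. RPKM over all X-linked genes in the table summed to 2877 and 3839 in the knockout mid libraries, against 7913 and 7345 in the control ones. The scale log2(RPKM + 1) understates differences of low genes, and the part of this in the knockout values was not tested. Among the spermatid families of the sex chromosomes, 18 genes were tested, 7 lay lower (38.9%, against 22% of all tested genes) and 0 higher, and the median was -0.45. Ube2dnl, a ubiquitin-conjugating enzyme relative, had 131 and 114 RPKM in the mid libraries and 7.70 and 43.8 in the mixed ones (-2.64 ± 1.17, limma adjusted p 0.41). H2afb1, a short histone H2A variant of spermatids, went the other way at 321 and 467 against 1934 and 424, with overlap. The 13 tested genes of the Y chromosome had a median of -0.68, which was -0.34 without mid library 1 and -1.21 without mixed library 2, but all except Eif2s3y carry clone names, and their reads may be shared with near-identical copies.

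**Figure D4:**
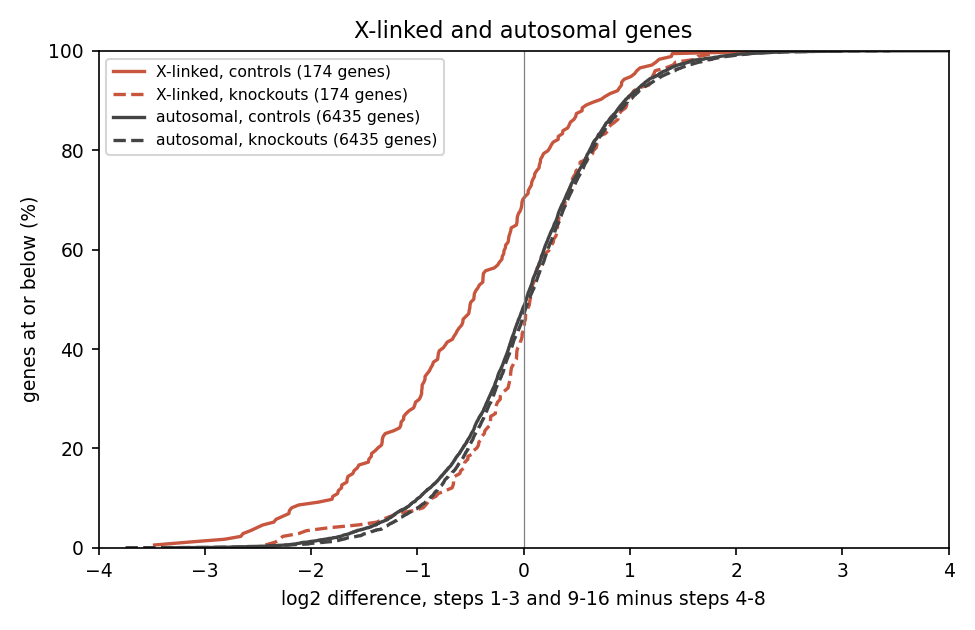
Cumulative share of tested genes at or below each log2 difference, mixed minus mid region, for 174 X-linked and 6435 autosomal genes in controls (solid) and knockouts (dashed). The control curve of X-linked genes lies to the left of the others, with its median at -0.47, and the knockout curve of the same genes follows the autosomal curves. The genes passed a filter on control libraries only, and X-linked RPKM summed lower in the knockout mid libraries than in the control ones.

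Genes at the 2 ends of the comparison also differed in kind. X-linked genes made up 2.63% of the tested genes, 9.32% of the 440 lower in the mixed region at an unadjusted p under 0.05 and 1.36% of the 368 higher. Clone-named or predicted genes, whose symbols end in Rik or begin with Gm, made up 25.3% of all tested, 43.2% of those lower and 24.7% of those higher. The median gene span was 10.1 kb for all tested, 9.39 kb for those lower and 5.76 kb for those higher. Genes with a single exon in GENCODE vM21 made up 6.84% of the 5757 tested genes with an entry, 11.4% of those lower and 9.85% of those higher. The median RPKM of the lower genes was 8.38 in the mid region and 2.32 in the mixed region, and that of the higher genes was 0.828 and 4.15. Olfactory and vomeronasal receptor genes, of which 28 of 1420 passed the filter, included 11 lower (39.3%, against 22% of all tested genes) and 1 higher without overlap, with a median of -0.57. Olfr701 had 10.5 and 7.62 RPKM in the mid libraries and 0.753 and 4.36 in the mixed ones (-1.70 ± 0.61).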

How the data were processed

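Libraries were trimmed with Trim Galore 0.4.0 and aligned with HISAT2 2.1.0 to mm10, per the submitters' processing notes, which name no counting tool. The authors deposited log2 RPKM per gene; tested on the values, it is taken over the gene span with introns, with 0.9 read entered where a gene had none. Values were raised back to RPKM, such genes set to 0, and log2(RPKM + 1), which understates differences of low genes, was tested with limma 3.58.1 (R 4.3.3, trended eBayes) over the 8 captured libraries in 4 groups; the knockouts enter the estimate of spread. Reads recovered from the deposited log2 values (99.9% within 0.05 of a whole number) served a voom alternative. SMART-seq2 does not mark strand, so overlapping antisense genes cannot be told apart. Members and gene lists were chosen with earlier results of these data known. Named genes were, as none was called, the 15 of lowest p per direction with regions that did not overlap and a mean of at least 5 RPKM in the higher region, without predicted or clone symbols; Tsga8; 17 defining genes; and the 2 largest and 2 smallest of each list. Other list members were chosen after their values were seen. P-values rest on the spread between the 2 libraries within each of the 4 groups, pooled over the groups and moderated across genes. Differences between animals and between captures are both part of that spread. The test was tried on simulated data. Promoters came from RefSeq (GRCm38.p6) for 57.4% of tested genes; figures were drawn with matplotlib 3.10.9.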

Additional observations from a re-analysis of the deposited data

How the results depend on the processing

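No gene was called between the regions in controls under any of the 14 alternatives, in knockouts or in the interaction under those run there. At an unadjusted p under 0.05 the control count was 808, and it ranged from 331 to 1301 when each control library was left out, 517 with libraries scaled to a common sum (172 higher and 345 lower, against 368 and 440), 1347 of 22355 genes without a filter, 307 of 2499 at a mean of at least 5 RPKM and 692 with voom. The common sum shifted the median of all genes by -0.13. With the replicate number as a block, 0 genes were called and 918 had an unadjusted p under 0.05; deviations of same-numbered libraries correlated at -0.005 in controls and 0.21 in knockouts, and as the labels do not say whether same-numbered libraries share an animal, no pairing was assumed. Of the 138 named genes tested (ends of lists with at least 5 tested genes included), 20 changed direction with a control library left out: Prm2 ranged from -0.0095 to 2.22, Tnp2 from -0.26 to 2.00, Akap4 from -0.44 to 0.79, Odf1 from -1.42 to 0.11, Smcp from -1.35 to 0.14, Ybx2 from -0.27 to 1.35, Piwil1 from -0.85 to 1.43, Ccna1 from -0.25 to 2.52, Clu from -0.23 to 2.73, Prss21 from -0.23 to 1.40, Cd46 from -1.45 to 0.22, Spem1 from -0.32 to 1.63, Ift20 from -0.0046 to 1.38, Tekt2 from -1.67 to 0.23, Tekt5 from -1.21 to 0.40, Rhox5 from -2.33 to 0.28, Aard from -0.39 to 0.15, Canx from -0.76 to 0.11, Olfr733 from -0.37 to 2.20 and AC182389.1 from -0.43 to 0.81. Akap4 was also -0.041 with the common sum; the cause was not tested. With 2 libraries a region and a median standard error of 0.50, differences as large as those of Insl3 (4.21) and 4930447F04Rik (-3.47) were not called (limma adjusted p 0.33 and 0.32).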
